A study of Mus musculus with 6 samples.

Results

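The genes described here encode the factors that cap, splice, cleave and polyadenylate RNA polymerase II transcripts, together with the hnRNP proteins that bind those transcripts. They were chosen by name, from the gene symbols of the array annotation: all genes of the Hnrnp, Srsf, Sf3a, Sf3b, Cpsf, Cstf and Prpf series, plus single factors such as Rngtt, Rnmt, Sympk, Pabpn1, Xrn2, U2af1, Snrnp70 and Ptbp1. A probe set had to carry 1 symbol only, and a gene was read from its probe set with the highest mean. This gave 78 genes, with 94 probe sets, of the 19938 genes on the array that have such a probe set. A further 22 probe sets name a matching gene together with another gene and were left out, among them those of Hnrnpa1, Hnrnpa3 and Hnrnph3.

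Expression was measured on 6 Affymetrix mouse gene arrays of NIH/3T3, an immortalized fibroblast line from mouse embryos. In 3 arrays the cells were stably transfected with 8KR RPB1, in which lysines at the last position of repeats of the C-terminal domain (CTD) are replaced by arginine, and in 3 arrays with wild type RPB1. Both groups were grown in DMEM with bovine calf serum and with α-amanitin, which inhibits RNA polymerase II. The labels call the arrays biological replicates, and the sources do not say whether each group came from 1 clone or from several, so that the p-values measure the spread between these arrays and a difference between the 2 transfected populations cannot be told apart from one between the 2 forms of RPB1. The comparison asks how the transcripts of these factors stood in cells that carried 8KR RPB1.

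RPB1 is the largest subunit of RNA polymerase II, and its CTD is a long tail of repeated heptads. The phosphorylated CTD binds the capping enzyme early in transcription, splicing factors during elongation, and cleavage and polyadenylation factors near the end of the gene, so that a transcript is processed while it is still being made. Many genes for these factors are expressed in every cell type, and several of them, the SR protein genes above all, are known to control their own messages through alternative splicing.

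Across probe sets, arrays of the same group correlated with r = 0.982 to 0.984 and arrays of different groups with r = 0.975 to 0.978, and their median log2 intensities were 4.49 to 4.54. Of 12 fibroblast markers, 10 averaged above 5.0 in the 8KR arrays and 11 in the wild type arrays, and 3 of the 12 were called lower and 1 higher. Their summed log2 intensity was 103.4 to 103.6 in the 8KR arrays and 106.6 to 107.5 in the wild type arrays, and the part of this in the results below was not tested. Among markers of epithelial, immune, endothelial, neuronal and muscle cells the median log2 intensity was 2.98 to 4.48 in the 8KR arrays and 2.88 to 4.85 in the wild type arrays, and none of them was called. The summed log2 intensity of the 4 muscle markers was 18.1 to 18.9 in the 8KR arrays and 19.46 to 19.50 in the wild type arrays, without overlap, while the sums of the other lists overlapped between the groups, and the part of this too was not tested. Polr2a, the gene for RPB1, measured 12.12, 12.13 and 12.13 in the 8KR arrays and 12.10, 12.11 and 12.09 in the wild type arrays, and its probe set does not separate the transfected copy from the gene of the cell.

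All values below are log2 intensities, and a difference is 8KR minus wild type on that scale. A gene was called when limma's adjusted p, taken over all 28543 probe sets tested, was under 0.05. All 78 genes passed the filter on low intensity, and their means over the 6 arrays were 4.02 to 10.87, with a median of 8.01 against 5.40 for all genes tested. Levels of different probe sets are not comparable with each other, and an array of bulk RNA cannot tell less RNA per cell from fewer cells with that RNA.

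Of the 78 genes, 6 were called, with 5 higher in 8KR cells and 1 lower. The higher ones were Sympk, Pabpn1 and Wdr33, which act at the 3′ end, U2af1, which recognizes the 3′ splice site, and Hnrnpm, and the lower one was Cstf2t. The 6 calls were 7.69% of the genes, while 5.39% of all 17145 genes tested were called, 2.33% as higher and 3.06% as lower. Among the 9619 genes with a mean above 5.0 the share was 8.66%, of which 3.79% higher and 4.87% lower, and among the 1979 genes brighter than the median of the 78 (a mean above 8.01) it was 11.8%, of which 5.26% higher and 6.52% lower. The share of these factors that was called was thus above that of all genes and below those of both brighter sets. The 6 calls were made with all 6 arrays: without any one of them limma called 0 of the 78, while 16 to 25 had an unadjusted p under 0.05, and the calls among all genes came down to between 274 and 293. Wdr33 and Hnrnpm also lost their calls when each array was centred on its median, and both of these and Cstf2t lost them when no filter on low intensity was set.

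The differences of the set leaned to the higher side. Of the 78 genes, 52 had a positive difference (66.7%), against 51.8% of all genes tested, and the median difference was 0.09 against 0.01. Among the 1979 brighter genes 47.6% were positive, and among 244 other RNA processing genes, described below, 62.3%. The positive ones of the 78 numbered 54 after quantile normalization and 47 after each array was centred on its median, where 48.4% and 46.2% of all genes were positive. With no adjustment, p was under 0.05 for 20 genes on the higher side and 6 on the lower side, where the shares over all genes were 10.9% and 11%, those above a mean of 5.0 were 15.7% and 16.3%, and those of the 1979 brighter genes were 17.3% and 20.9%. The 3 8KR arrays lay all above the 3 wild type arrays for 32 genes and all below them for 8, against 15% and 14.7% of all genes, 20.7% and 21.3% of those above a mean of 5.0, and 26.4% and 30.6% of the 1979 brighter ones. No test was made of the set as a whole, since its genes were named with results of these data known.

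**Figure D1:**
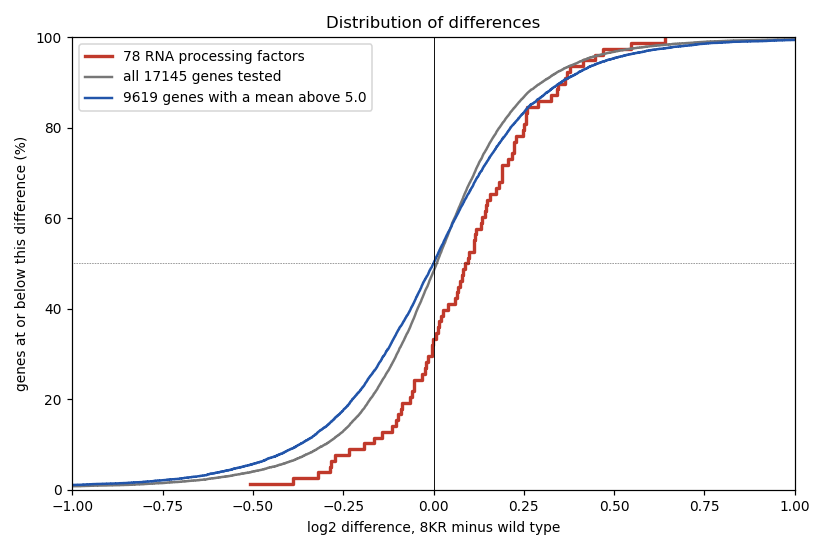
Cumulative share of genes (y axis, %) by log2 difference, 8KR minus wild type (x axis), for the 78 RNA processing factors, all 17145 genes tested and the 9619 genes with a mean above 5.0. The line of the 78 factors lies to the right of both others around its median of 0.09, and starts at -0.51 and ends at 0.64; genes beyond -1 or 1 lie outside the plot.

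The sizes were small throughout. Differences ran from -0.51 for Cstf2t to 0.64 for Sympk, with quartiles at -0.03 and 0.22 and a median standard error of 0.08. The 95% interval lay within ±0.5 for 60 of the 78 genes and within ±1 for all 78. Of the 1979 brighter genes, 1452 had an interval within ±0.5 and 1933 within ±1. Of all 17145 genes tested, these numbers were 10660 and 16420.

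**Figure D2:**
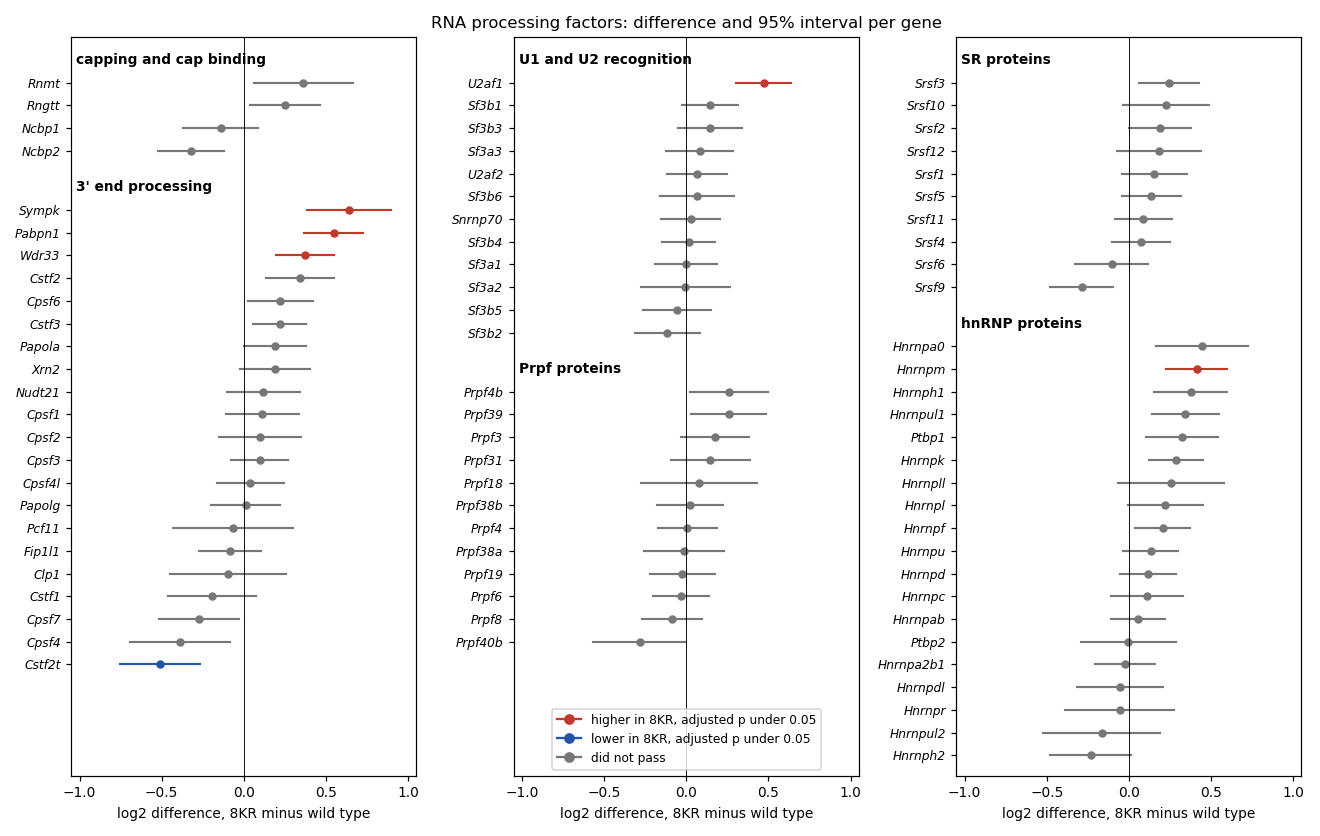
Log2 difference, 8KR minus wild type (points), with its 95% interval (lines) for each of the 78 genes, grouped by role and ordered by size. Colour marks the 5 genes called higher and the 1 called lower, and 4 of these 6 are among the 21 genes of 3′ end processing.

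Capping begins with Rngtt, the enzyme that removes a phosphate from the first nucleotide and adds the guanosine, and is completed by Rnmt, which methylates it. Ncbp1 and Ncbp2 form the nuclear complex that holds the finished cap. None of the 4 was called by limma, while 3 had an unadjusted p under 0.05, 2 on the higher and 1 on the lower side. Such a p was found in 10.9% of all genes on the higher side and 11% on the lower side. Above a mean of 5.0 the shares were 15.7% and 16.3%. Rngtt measured 6.60, 6.53 and 6.51 in the 8KR arrays, against 6.17, 6.37 and 6.36 in the wild type arrays. Its difference was 0.25 ± 0.09 (SE), with an adjusted p of 0.189 from limma. Rnmt measured 6.09, 6.19 and 6.36 in the 8KR arrays, against 5.95, 5.96 and 5.64 in the wild type arrays. For both enzymes the groups did not overlap, and for Rnmt the difference of 0.36 ± 0.12 (SE) had an adjusted p of 0.182. Ncbp2, the subunit that contacts the cap, lay on the other side, at 8.07, 8.18 and 7.98 in the 8KR arrays and 8.43, 8.41 and 8.34 in the wild type arrays. That difference was -0.32 ± 0.08 (SE), with an adjusted p of 0.0963. Ncbp1, its partner, overlapped between the groups, with means of 7.76 ± 0.06 in 8KR cells and 7.90 ± 0.13 in wild type cells (SD, n = 3 each). Its 95% interval ran from -0.37 to 0.08.

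At the 3′ end, CPSF recognizes the polyadenylation signal and cuts, CstF binds the downstream element, CFIm and CFIIm assist, poly(A) polymerase adds the tail, Pabpn1 coats it, and Xrn2 degrades the RNA left behind on the polymerase. Of the 21 genes of this group 3 were called higher and 1 lower, and 10 had an unadjusted p under 0.05, 7 on the higher and 3 on the lower side. The 4 calls were 19.0% of the group, against 5.39% of all genes and 8.66% of those above a mean of 5.0. The unadjusted shares for those above 5.0 were 15.7% on the higher and 16.3% on the lower side, and the group's median level was 7.40.

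Sympk, the scaffold that joins CPSF to CstF, measured 8.61, 8.58 and 8.35 in the 8KR arrays, against 7.87, 7.77 and 7.97 in the wild type arrays. The lowest 8KR array lay above the highest wild type array, and the difference of 0.64 ± 0.10 (SE) was the largest of the 78. It corresponds to a 1.56-fold level (95% interval 1.31 to 1.86), with an adjusted p of 0.0306. Sympk has a further pair of probe sets, with identical values in every array and a mean of 4.71, and in these the difference was 0.04 with an adjusted p of 0.865. When a gene was read from the mean of its probe sets, the difference for Sympk was 0.24 and the call was lost. In that mean the identical pair counted as 2 of the 3 probe sets.

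Pabpn1, the nuclear poly(A) binding protein, which sets the length of the tail, measured 8.89, 8.92 and 8.99 in the 8KR arrays, against 8.37, 8.45 and 8.34 in the wild type arrays. The arrays of each group lay close together and well apart from the other group. The difference was 0.55 ± 0.07 (SE), a 1.46-fold level (95% interval 1.29 to 1.66), with the smallest adjusted p of the 78, 0.0184. Wdr33, the CPSF subunit that contacts the AAUAAA signal, measured 7.09, 7.19 and 7.15 in the 8KR arrays and 6.80, 6.72 and 6.79 in the wild type arrays. Its groups did not overlap, and the difference of 0.37 ± 0.07 (SE) had an adjusted p of 0.0489, close to the threshold.

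Cstf2t was the one gene called lower. It is a copy of Cstf2 without introns, well known from male germ cells, and like Cstf2 it encodes a 64 kDa subunit of CstF. It measured 6.01, 5.76 and 5.77 in the 8KR arrays, against 6.32, 6.44 and 6.29 in the wild type arrays. No 8KR array reached the lowest wild type array, and the difference was -0.51 ± 0.10 (SE), a 0.703-fold level (95% interval 0.594 to 0.833), with an adjusted p of 0.0497. Cstf2 itself measured 6.74, 6.75 and 6.71 in the 8KR arrays and 6.44, 6.48 and 6.26 in the wild type arrays, a difference of 0.34 ± 0.09 (SE) that did not pass, with an adjusted p of 0.0899. The 2 genes thus lay on opposite sides, and the difference between their changes was not tested, nor was binding of transcripts of the one to probes of the other.

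**Figure D3:**
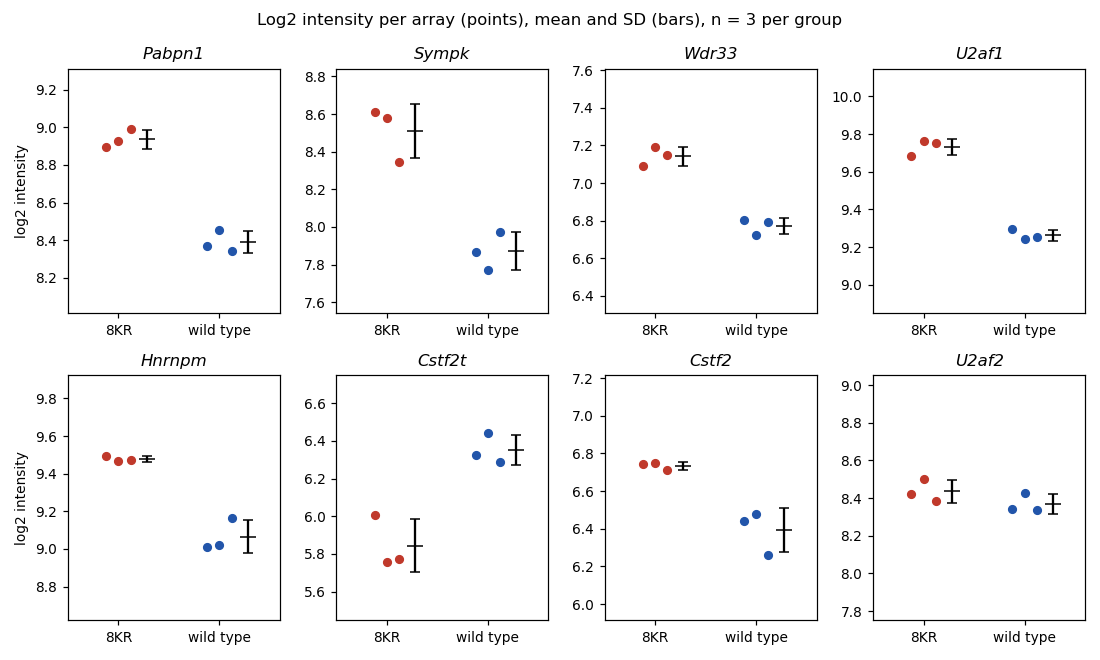
Log2 intensity in each array (points; 8KR left, wild type right), with mean and SD (bars, n = 3 per group), for the 6 called genes and for Cstf2 and U2af2, which did not pass. The groups do not overlap in any panel but that of U2af2, and every panel spans the same range of log2 intensity.

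The stretches of 150 bases before the transcription start are shown for those of these genes that the RefSeq promoter table holds (assembly GRCm38.p6), to set the promoters of the called genes and of the Cstf2 pair side by side. Capitals mark matches, on either strand, to the GC box (GGGCGG), the CCAAT box (CCAAT), an ETS motif (CCGGAAG), the NRF1 core (GCGCNTGCG) or the TATA box (TATAAA), and overlapping matches run together. The windows are chr7:19024227-19024376 on the plus strand for Sympk, chr14:54893993-54894142 on the plus strand for Pabpn1, chr19:31082691-31082840 on the plus strand for Cstf2t and chrX:134059026-134059175 on the plus strand for Cstf2.
Sympk: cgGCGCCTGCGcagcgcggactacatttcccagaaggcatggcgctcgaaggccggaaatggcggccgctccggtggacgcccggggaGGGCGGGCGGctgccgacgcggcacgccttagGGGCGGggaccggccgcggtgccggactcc
Pabpn1: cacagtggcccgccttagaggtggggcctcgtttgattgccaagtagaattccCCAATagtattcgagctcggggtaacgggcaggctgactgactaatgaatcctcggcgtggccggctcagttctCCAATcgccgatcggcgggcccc
Cstf2t: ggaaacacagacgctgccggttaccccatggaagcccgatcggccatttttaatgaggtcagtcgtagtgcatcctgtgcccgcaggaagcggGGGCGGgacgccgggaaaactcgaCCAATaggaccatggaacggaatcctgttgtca
Cstf2: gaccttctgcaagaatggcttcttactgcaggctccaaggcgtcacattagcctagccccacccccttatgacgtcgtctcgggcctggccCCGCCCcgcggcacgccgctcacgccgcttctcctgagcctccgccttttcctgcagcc
The Sympk stretch holds 3 GC boxes, of which a pair overlap, and 1 NRF1 core, while that of Pabpn1 holds 2 CCAAT boxes and no GC box. Cstf2t has 1 GC box and 1 CCAAT box, and Cstf2 has 1 GC box. Such matches are a description of letters and not of bound sites.

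The other genes of the 3′ end were split. Cpsf4, a zinc finger subunit of CPSF, measured 5.60, 5.21 and 5.60 in the 8KR arrays, against 5.85, 5.83 and 5.89 in the wild type arrays. It lay lower in every 8KR array, by 0.39 on average (difference -0.39 ± 0.12, SE), with an adjusted p of 0.159. In CFIm, Cpsf6 averaged 7.75 ± 0.03 in 8KR cells and 7.53 ± 0.10 in wild type cells (SD, n = 3 each), with a difference of 0.22 and an adjusted p of 0.204. Cpsf7, the alternative partner in that complex, averaged 7.48 ± 0.12 in 8KR cells and 7.75 ± 0.11 in wild type cells, with a difference of -0.27 and an adjusted p of 0.206. Neither was called, and whether Cpsf6 and Cpsf7 changed unequally was not tested. Nudt21, which binds the RNA for both, overlapped between the groups and had a difference of 0.12 (95% interval -0.10 to 0.34).

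Papola, the main poly(A) polymerase, measured 8.90, 9.07 and 9.05 in the 8KR arrays and 8.83, 8.81 and 8.81 in the wild type arrays. Its groups did not overlap, and the difference of 0.19 had an adjusted p of 0.253. Papolg, a second nuclear poly(A) polymerase, differed by 0.01 (95% interval -0.20 to 0.22). Xrn2, the exonuclease of termination, measured 7.99, 8.10 and 8.20 in the 8KR arrays and 7.98, 7.86 and 7.88 in the wild type arrays, with a difference of 0.19 and an adjusted p of 0.303. Pcf11 and Clp1, the pair that make up CFIIm, overlapped between the groups. Pcf11 differed by -0.07 (95% interval -0.43 to 0.30) and Clp1 by -0.10 (95% interval -0.45 to 0.26), among the widest intervals of the set. Cpsf4l, a relative of Cpsf4, averaged 4.62 ± 0.11 in 8KR cells and 4.58 ± 0.04 in wild type cells (SD, n = 3 each), near the median intensity of the arrays. For Papolg, Pcf11, Clp1 and Cpsf4l leaving out 1 array turned the sign of the difference.

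Splice site recognition rests on U1 at the 5′ splice site, represented here by Snrnp70, and on U2AF and the SF3A and SF3B parts of U2 at the branch point and 3′ splice site. Of these 12 genes U2af1 was called higher, no other had an unadjusted p under 0.05, and the median difference was 0.05. Of all genes tested, 2.33% were called higher, and 10.9% and 11% had such a p on the higher and the lower side. U2af1, the subunit of U2AF that reads the AG at the end of the intron, measured 9.69, 9.76 and 9.75 in the 8KR arrays, against 9.30, 9.24 and 9.25 in the wild type arrays. The gap between the groups was several times the spread within either. The difference was 0.47 ± 0.07 (SE), a 1.39-fold level (95% interval 1.23 to 1.56), with an adjusted p of 0.0230, and a second probe set of the gene gave 0.42 with an adjusted p of 0.0326. U2af2, its partner, which binds the polypyrimidine tract, measured 8.42, 8.50 and 8.38 in the 8KR arrays and 8.34, 8.43 and 8.34 in the wild type arrays. These arrays overlapped, and the difference of 0.07 had a 95% interval of -0.12 to 0.25. Whether the 2 subunits changed unequally was not tested.

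The 150 bases before the start of U2af1, from the same table (chr17:31658765-31658914, minus strand), are shown as the promoter of the one called gene of splice site recognition.
U2af1: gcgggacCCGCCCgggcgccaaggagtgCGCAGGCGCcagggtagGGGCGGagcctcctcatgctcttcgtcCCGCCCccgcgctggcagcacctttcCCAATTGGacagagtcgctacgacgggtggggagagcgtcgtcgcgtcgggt
They hold 3 GC boxes, 1 NRF1 core and 2 CCAAT boxes that overlap on opposite strands.

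Snrnp70, the U1 protein that binds a stem loop of U1 snRNA, averaged 8.88 ± 0.04 in 8KR cells and 8.85 ± 0.07 in wild type cells (SD, n = 3 each). Its difference of 0.03 turned to -0.000567 when each array was centred on its median. The 3 SF3A and 6 SF3B genes had differences between -0.12 and 0.14, the extremes being Sf3b2 and Sf3b1, and all their 95% intervals lay within ±0.5. Sf3b2 and Sf3b1 are given as the ends of that range, after the values were seen.

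The 12 Prpf genes encode proteins of the U4/U6.U5 tri-snRNP, the U1 particle and the complex around Prpf19. None was called by limma, 3 had an unadjusted p under 0.05, 2 on the higher and 1 on the lower side, and the median difference was 0.01. Such a p was found in 10.9% of all genes on the higher side and 11% on the lower side. Above a mean of 5.0 the shares were 15.7% and 16.3%. Prpf40b, related to a yeast U1 protein that bridges the CTD and the intron ends, measured 5.07, 5.19 and 5.22 in the 8KR arrays, against 5.66, 5.30 and 5.37 in the wild type arrays. All 8KR arrays were below all wild type arrays, with a difference of -0.28 and an adjusted p of 0.248. The other 2 were Prpf39, with a difference of 0.26 and an adjusted p of 0.206, and Prpf4b, a kinase of the spliceosome, with 0.26 and 0.216, and both are named after their values were seen. Prpf8, the protein at the heart of the spliceosome, differed by -0.09 (95% interval -0.27 to 0.09) and is named here for its role.

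SR proteins bind exonic enhancers and help to define exons. None of the 10 was called by limma and 2 had an unadjusted p under 0.05, 1 on each side. Of the 10 differences 8 were positive, and the median was 0.15. The median level of the group was 9.09. Among the 1979 genes with a mean above 8.01, 47.6% were positive, against 51.8% of all genes tested. Of those 1979 genes 17.3% had such a p on the higher side and 20.9% on the lower side. Over all genes these shares were 10.9% and 11%. Srsf3 measured 10.97, 11.07 and 10.95 in the 8KR arrays, against 10.72, 10.72 and 10.80 in the wild type arrays. The groups did not overlap, and the difference of 0.25 ± 0.07 (SE) had an adjusted p of 0.140. Its other probe sets gave 0.24 and 0.28. Srsf9 went the other way, at 7.96, 7.84 and 7.80 in the 8KR arrays and 8.17, 8.11 and 8.19 in the wild type arrays. That difference was -0.29 ± 0.08 (SE), with an adjusted p of 0.107. Srsf12 measured 4.09, 4.12 and 4.13 in the 8KR arrays and 3.80, 3.87 and 4.13 in the wild type arrays, below the median intensity of every array, and overlapped between the groups.

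The hnRNP genes, with Ptbp1 and Ptbp2 among them, encode abundant nuclear proteins that coat the transcript and often repress exons. Of the 19, 1 was called higher, and 7 had an unadjusted p under 0.05, all on the higher side. Arrays of the 2 groups did not overlap for 11 genes, all higher in 8KR, and for none on the lower side. The median level of the group was 9.13, and among the 1979 genes brighter than 8.01 the shares were 5.26% called higher, 17.3% at an unadjusted p under 0.05 on the higher side, and 26.4% without overlap on the higher and 30.6% on the lower side. Over all genes tested these shares were 2.33%, 10.9%, 15% and 14.7%. The 1 call was 5.26% of the group. Hnrnpm, a splicing regulator with binding sites rich in G and U, measured 9.50, 9.47 and 9.47 in the 8KR arrays, against 9.01, 9.02 and 9.16 in the wild type arrays. Its 8KR arrays had an SD of 0.02, and the difference was 0.41 ± 0.08 (SE), a 1.33-fold level (95% interval 1.17 to 1.52), with an adjusted p of 0.0438.

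Its 150 bases before the start (chr17:33685459-33685608, minus strand) are shown as the promoter of the one called gene of this group, and none of the 5 motifs occurs in them.
Hnrnpm: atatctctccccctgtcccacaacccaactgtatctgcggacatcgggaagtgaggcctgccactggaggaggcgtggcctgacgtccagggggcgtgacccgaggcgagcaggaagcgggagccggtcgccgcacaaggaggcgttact

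Hnrnpk, which binds C-rich stretches, measured 10.83, 10.87 and 10.89 in the 8KR arrays, against 10.55, 10.59 and 10.57 in the wild type arrays. No arrays overlapped, and the difference of 0.29 ± 0.07 (SE) had an adjusted p of 0.0757, while its 2 further probe sets gave 0.30 and 0.24. Hnrnpf, which binds runs of G, measured 10.95, 10.92 and 10.93 in the 8KR arrays and 10.75, 10.67 and 10.76 in the wild type arrays. Here the difference was 0.21 with an adjusted p of 0.174, and its 3 other probe sets gave 0.19 to 0.23. Ptbp1, the polypyrimidine tract binding protein of most cells, measured 10.02, 10.09 and 10.16 in the 8KR arrays, against 9.80, 9.86 and 9.64 in the wild type arrays. The groups were separate, and the difference of 0.33 ± 0.09 (SE) had an adjusted p of 0.112. Ptbp2, which takes its place in neurons, averaged 7.18 ± 0.04 in 8KR cells and 7.18 ± 0.21 in wild type cells (SD, n = 3 each).

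Other hnRNP genes are named after their values were seen. Hnrnpa0 had a difference of 0.45 with an adjusted p of 0.0954, Hnrnph1 0.38 with 0.0823, and Hnrnpul1 0.34 with 0.0828. Hnrnph2, a close relative of Hnrnph1, lay on the other side with a difference of -0.23 and an adjusted p of 0.279, and its second probe set gave -0.29. The difference between the 2 relatives was not tested.

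Of the 78 genes, 68 have an entry in the promoter table. In the 250 bases before the start, the GC box was found in 64.7% of the 68, against 51.3% of the 13477 tested genes in the table and 32.9% of all its 27025 promoters. The ETS motif was found in 25% against 10.9% and 7.05%, and the NRF1 core in 20.6% against 9.03% and 5.40%. The CCAAT box was found in 42.6% against 35.3% and 34.5%. The TATA box was found in 5.88% against 8.66% and 13.0%. In this longer window Hnrnpm has 1 TATA box and Cstf2t has 1 ETS motif, both outside the 150 bases shown above. The median number of CpG was 21 in the promoters of the 68 and 13 in those of the tested genes, with median GC contents of 60.8% and 58.4%.

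Genes beside the called ones were read from the RefSeq gene order, 5 tested genes on each side. Around Cstf2t on chromosome 19, Asah2 and Papss2 were called lower, with differences of -0.96 and -1.39, both larger in size than that of Cstf2t, and the 10 neighbours had a median of -0.17. The neighbours of Sympk on chromosome 7 had a median of 0.26, with Fbxo46 called higher at 0.53. Those of Hnrnpm on chromosome 17 had a median of 0.26 with none called, and those of Wdr33 on chromosome 18 had 0.18, with Sap130 called higher at 0.53. Around U2af1 on chromosome 17 the median was 0.07, with Rrp1b called higher at 0.55, and around Pabpn1 on chromosome 14 it was -0.09 with none called, although Bcl2l2, the gene next to it, had a difference of 0.35 (adjusted p 0.302). For all 17127 genes that could be placed, 5% to 95% of such medians lay between -0.19 and 0.19. The medians around Sympk and Hnrnpm were above that range. Over the 78 genes the medians ran from -0.24 to 0.31. The lowest, around Hnrnpu, and the highest, around Rnmt and Hnrnpll (0.31 each), lay beside genes that were not called. The mean number of called neighbours was 0.53 over all placed genes and 0.33 over the 78. The part of a shared neighbourhood in these calls was not tested.

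**Figure D4:**
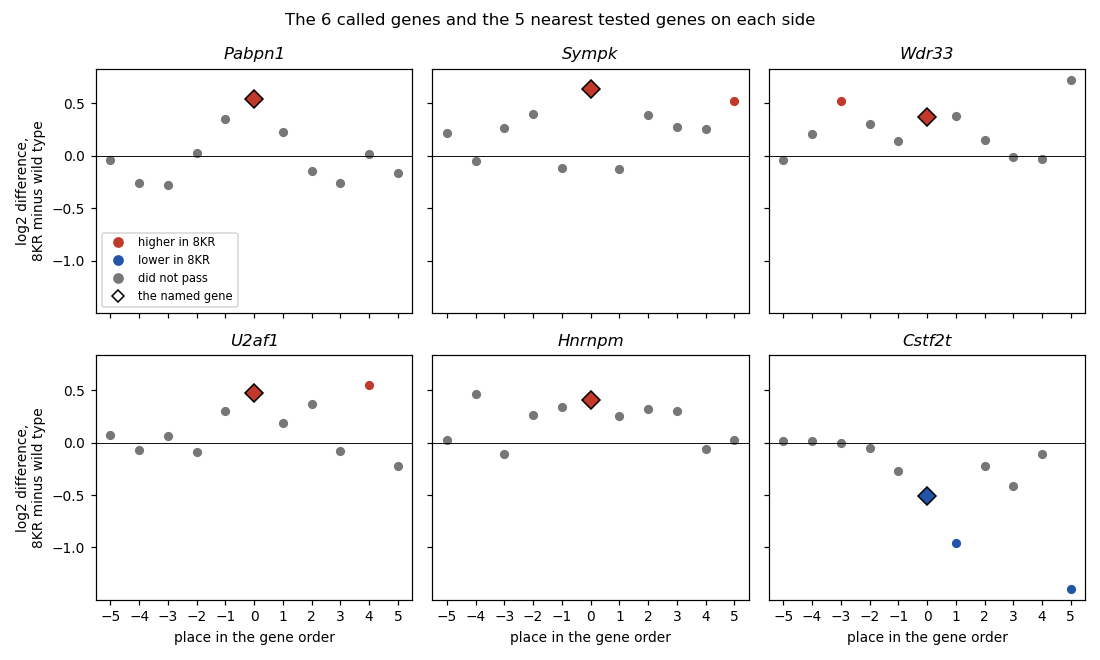
Log2 difference, 8KR minus wild type (y axis), of the 6 called genes (diamonds at place 0) and of the 5 nearest tested genes on each side in chromosome order (circles, x axis in gene places), coloured by call. Neighbours of Cstf2t include Asah2 and Papss2, called lower at -0.96 and -1.39, while those of Pabpn1 lie on both sides of 0.

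RNA processing reaches beyond these 78 genes, and 268 further genes were listed by role, of which 244 were tested. Of these, 13 were called (5.33%, against 5.39% of all genes), 8 higher and 5 lower. Their median difference was 0.07, and 62.3% of the differences were positive, against 66.7% for the 78 genes and 51.8% for all genes. An unadjusted p under 0.05 was found for 47 on the higher and 25 on the lower side, against 10.9% and 11% of all genes. The groups did not overlap for 68 on the higher and 33 on the lower side, against 15% and 14.7%. None of the 19 tested genes of Integrator and histone 3′ end formation and none of the 12 of the exon junction complex was called by limma, with 3 and 2 of them at an unadjusted p under 0.05. In 7 further genes of the cap, Eif4e and Dcp2 were called higher, and both are known chiefly from the cytoplasm. Eif4e, which binds the cap to start translation, averaged 9.29 ± 0.04 in 8KR cells and 8.76 ± 0.04 in wild type cells (SD, n = 3 each), with a difference of 0.53. Dcp2, the enzyme that removes the cap, averaged 7.72 ± 0.05 in 8KR cells and 6.97 ± 0.23 in wild type cells, with a difference of 0.76. In 26 genes listed for the 3′ end and termination, Wdr82, which binds the phosphorylated CTD, was called lower with a difference of -0.36. That list also holds Nab2 (-0.11, not called), which in mouse encodes an Egr corepressor and not a 3′ end factor.

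Of 43 genes of Sm, Lsm and other snRNP proteins 1 was called, or 2.33% against 5.39% of all genes and 8.66% of those above a mean of 5.0. This was Smn1, which assembles Sm rings on snRNAs, and it was higher. It measured 6.89, 7.00 and 7.04 in the 8KR arrays, against 6.24, 6.35 and 6.41 in the wild type arrays, with a difference of 0.64. Of 54 genes of spliceosome assembly and catalysis 3 were called, or 5.56%, near the share of all genes. Cwc15 was lower, with a difference of -0.69, while the helicase gene Ddx46 was higher by 0.49 and Wtap, better known as a subunit of the RNA methyltransferase that makes m6A, by 0.51. Of 67 other splicing regulators 2 were called, or 2.99%, below the share of all genes. Rbm47 measured 6.43, 5.79 and 5.75 in the 8KR arrays, against 4.18, 4.11 and 4.20 in the wild type arrays. Its difference of 1.83 was the largest in size of all these lists, and was called, as was that of Cirbp, a protein induced by cold, at -0.69.

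Kinases and phosphatases listed for a possible link to SR proteins, together with Tnpo3, an import receptor of SR proteins, had 4 calls among 16 genes. The list was drawn up with earlier results of these data known, and whether each gene acts on SR proteins was not tested. These calls were 2 on each side, or 25% against 5.39% of all genes and 8.66% of those above a mean of 5.0. Srpk1, a kinase that drives SR proteins into the nucleus, averaged 8.98 ± 0.03 in 8KR cells and 8.52 ± 0.07 in wild type cells (SD, n = 3 each), with a difference of 0.46. Srpk2, its relative, averaged 6.39 ± 0.11 in 8KR cells and 6.98 ± 0.03 in wild type cells, with a difference of -0.59. Hipk2, a kinase with many other substrates, had a difference of 0.97, and Ppm1g, a phosphatase linked to spliceosome assembly, one of -0.52. All 4 had arrays that did not overlap, and adjusted p-values of 0.00709 for Hipk2, 0.0206 for Srpk2, 0.0241 for Ppm1g and 0.0288 for Srpk1. Without any one of the 6 arrays Srpk1, Srpk2 and Ppm1g lost their calls and Hipk2 kept its call, and the 13 calls in all these lists came down to between 2 and 4.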

How the data were processed

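NIH/3T3 cells with 8KR or wild type RPB1 were profiled on 3 arrays each, grouped by the genotype in the labels. The authors deposited log2 intensities by probe set, which they had already normalized. The sources used here do not give the method, and Affymetrix Power Tools 1.12.0 is the program in the submitters' processing notes. Of 35557 probe sets, 7014 without a group mean above 3.0 were removed, as in the study's methods, and 28543 entered a linear model without covariates (lmFit, then eBayes, in limma 3.58.1 under R 4.3.3), with Benjamini-Hochberg adjustment over all of them. The fit was first tested on simulated data. Symbols came from the platform annotation and were updated with the RefSeq gene table of GRCm38.p6, which also gave the gene order. Genes were named by rule: those called, the smallest p-values in each direction, the highest and lowest means, and a set of core factors. The genes, the lists and the rule were chosen with earlier results of these data known. Other filters, scalings, variance models and choices of probe set, the replicate number as a block, and fits without each array were run as alternatives. Arrays hold no read depth, and their number limits the precision.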

Additional observations from a re-analysis of the deposited data

How the results depend on the processing

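Calls depended on the variance model, the filter and the number of arrays. Of the 78 genes, limma called 6 in the fit described, 3 without a filter, 14 of 76 with a filter at 5.0, 4 after median centring, 13 with an intensity trend in the variance, 9 when only probe sets with 1 symbol were tested, 8 when probe sets were averaged per gene, and 3 when a difference of at least 0.5 was also asked. Quantile normalization and array weights gave 6 each. With each array left out in turn the count was 0 in all 6 fits, with 16 to 25 at an unadjusted p under 0.05. All genes called numbered 924, and 1736 with the filter at 5.0, 1528 with the trend, 1638 with 1 symbol only, 1738 with averaged probe sets and 274 to 293 with an array left out. Calls in the other RNA processing lists numbered 13, and 36, 37, 29, 29 and 2 to 4 in the same order. The replicate block left 0 of the 78 genes called (19 at an unadjusted p under 0.05), 63 of all genes and 0 of the other lists. Across all probe sets tested, same-numbered arrays did not deviate together (r = -0.01, 0.01 and -0.000484 for numbers 1, 2 and 3). A pairing that touches only a part of the genes was not tested, and the sources do not say what the numbers stand for. The 6 called genes kept their direction in all alternatives run. Signs turned for Snrnp70 (-0.000567) and Papolg (-0.0153) after centring, and with 1 array left out Snrnp70 ranged from -0.00664 to 0.0601, Papolg from -0.0504 to 0.0474, Cpsf4l from -0.00439 to 0.0986, Clp1 from -0.207 to 0.0361, Ptbp2 from -0.120 to 0.0819 and Pcf11 from -0.216 to 0.0425.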
